A study of Danio rerio with 12 samples.

Results

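The baseline transcriptome of neutrophils in the uninjured larval trunk was described from 3 libraries of a series of 12. These were the 3 libraries labelled uninjured and DMSO, chosen by their labels and by no measured value. The source was zebrafish larvae carrying mpx:GFP, a fluorescent reporter driven by the promoter of mpx, the myeloperoxidase gene of neutrophils. GFP-positive cells were sorted from trunk tissue at the level where other larvae of the series had their spinal cord cut at 3 days post-fertilization. These larvae were uncut, matched to them in age, and kept in DMSO, the vehicle of the drug given to other groups. The treatment protocol, given in the same words for all samples, names anaesthesia in 0.5 mM tricaine and a drug incubation from 4 to 8 hours post-injury, and it does not say which of these steps the uncut DMSO larvae went through. The labels give the concentration of DMSO only for larvae that got the drug, where DMSO was at 0.1%. Each library came from 2500 to 4800 cells and is labelled as a biological replicate, and the sources used here do not say how many larvae were pooled. The aim set out for the series is to learn what neutrophils contribute to spinal cord regeneration, and the uninjured DMSO cells are its uncut, vehicle-treated group.

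Neutrophils are short-lived phagocytes that patrol tissues and reach wounds first. They carry ready-made granules of proteases, lysozyme and peroxidase, move by rapid actin turnover, and kill microbes with a burst of oxidants made by the NADPH oxidase. In zebrafish larvae they are already present before adaptive immunity has matured, and mpx, lyz and npsn are the genes most often used to find them.

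The libraries were similar in how their counts were divided between nuclear and mitochondrial entries. Replicates 1, 2 and 3 held 1942665, 1697505 and 6446738 counts, of which ERCC spike-in RNAs took 0.00705%, 0.00648% and 0.0112%. Of the other counts, 68.7 ± 1.12% fell on nuclear entries and 31.2 ± 1.12% on mitochondrial ones (mean ± SD, n = 3). Levels are given as CPM, counts per 1000000 counts outside the ERCC entries, for replicates 1, 2 and 3 in that order. The method counts the 3' ends of transcripts, so CPM was not divided by transcript length, and levels of different genes are compared on that scale. A count of 3, taken as the limit that a count of 0 allows, equals 1.54, 1.77 and 0.465 CPM in the 3 libraries and covers counting error only.

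The sort marker and all 4 neutrophil markers were abundant in every library. The reporter transcript EGFP had 1674, 1711 and 1827 CPM, and 57 nuclear entries had a higher mean. The gene npsn, which encodes the secreted metalloprotease nephrosin, had 23865, 25301 and 19755 CPM and ranked 3 in each library. Lysozyme, lyz, which cleaves bacterial cell walls, had 4169, 5562 and 6268 CPM. The peroxidase gene mpx had 2373, 2874 and 3402 CPM, and srgn, which encodes serglycin, the proteoglycan that packs granule contents, had 1369, 1144 and 1547 CPM. By mean CPM npsn, lyz, mpx and srgn ranked 3, 14, 29 and 70 among nuclear entries, and the ranges of their 3 values did not overlap. All 4 were therefore among the 100 highest entries. The cells were sorted on a reporter driven by the mpx promoter, so high EGFP and mpx are not independent of the sort. Genes also used to mark other cells ranked above mpx by mean, with the muscle gene mylz3 at 11 and cpa5 at 19. In replicate 3, however, mylz3 had 638 CPM and ranked 163, below mpx at 25.

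Most of the messenger pool fell on a small part of the entries. The table used holds 31173 nuclear entries, of which 25352 are single genes and 5821 join genes whose annotations share reads. At least 1 CPM in every library was reached by 7144 entries (22.9%), of which 7089 were single genes (28.0% of single genes). At least 10 CPM was reached by 3289 entries, 100 CPM by 616, 1000 CPM by 76 and 10000 CPM by 5. The 10 highest entries took 28.1 ± 2.36% of nuclear counts, the 100 highest 56.0 ± 2.45% and the 1000 highest 85.4 ± 1.06% (mean ± SD, n = 3). At the other end, 17174 entries (55.1%) had no count in any of the 3 libraries. Single-gene protein-coding entries took 95.1 ± 0.250% of nuclear counts, a share that leaves out joint entries of protein-coding genes.

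**Figure D1:**
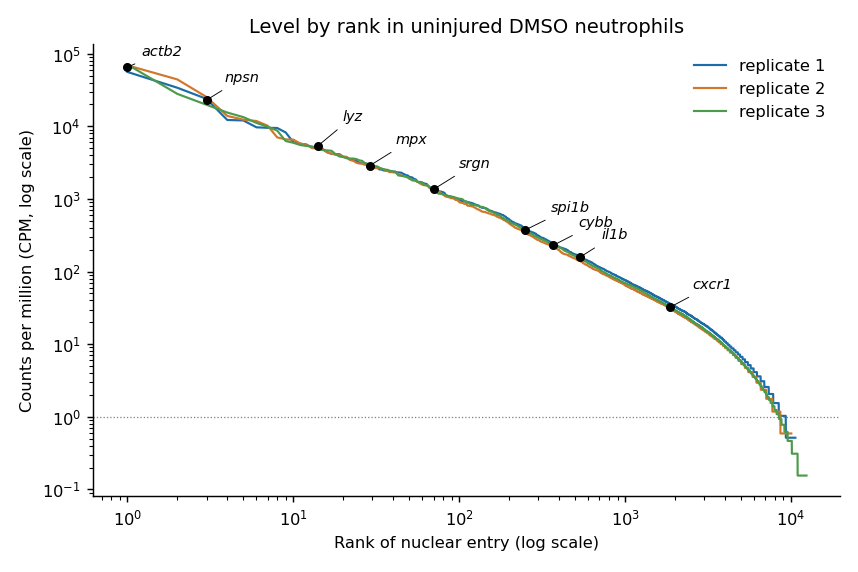
CPM of every nuclear entry with a count (y axis, log scale) against its rank (x axis, log scale), with 1 line for each of the 3 libraries; black points are the mean CPM of named genes, and the dotted line is 1 CPM. The 3 lines lie close together over most ranks, and npsn, lyz, mpx and srgn lie between ranks 3 and 70.

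The 2 highest entries both encode the core of the actin system. Beta-actin, actb2, had 56067, 69155 and 70890.3 CPM, and tmsb4x, whose product thymosin beta 4 holds actin monomers in reserve, had 33959, 44222 and 27960.5 CPM. The translation elongation factor gene eef2b followed the neutrophil genes with 12039.5, 12353 and 13386 CPM. These entries and npsn lay at the same rank in every library. The entry CR318588.4, annotated as a processed transcript, had 9478, 10184 and 11130.0 CPM and ranked 6 by the mean. Cytosolic ribosomal protein genes made up 11 of the 30 highest entries and 19 of the 50 highest.

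Chaperones, a sulfotransferase and more of the actin machinery filled the next ranks. The constitutive chaperone gene hspa8 had 8218, 3838 and 8724 CPM, and hsp90ab1, which encodes a cytosolic Hsp90, had 3728, 4067 and 3599 CPM. The sulfotransferase gene sult2st1 was among the most even, with 4387, 4395 and 4661 CPM. The carboxypeptidase gene cpa5, which in zebrafish is also used to mark mast cells, had 3073, 4958 and 4601 CPM. Profilin, pfn1, which feeds actin monomers to growing filaments, had 3461, 5002 and 3767 CPM. The filament-severing cofilins cfl1 and cfl1l had 4123, 3797 and 4714 CPM and 3073, 2824 and 4121 CPM. The mitochondrial ADP/ATP carrier gene slc25a5 had 3403, 3071 and 3336 CPM. Neighbouring ranks were separated mainly at the top. Among the 49 neighbouring pairs of the 50 highest entries, 4 had ranges that did not overlap, all within the first 6 ranks.

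**Figure D2:**
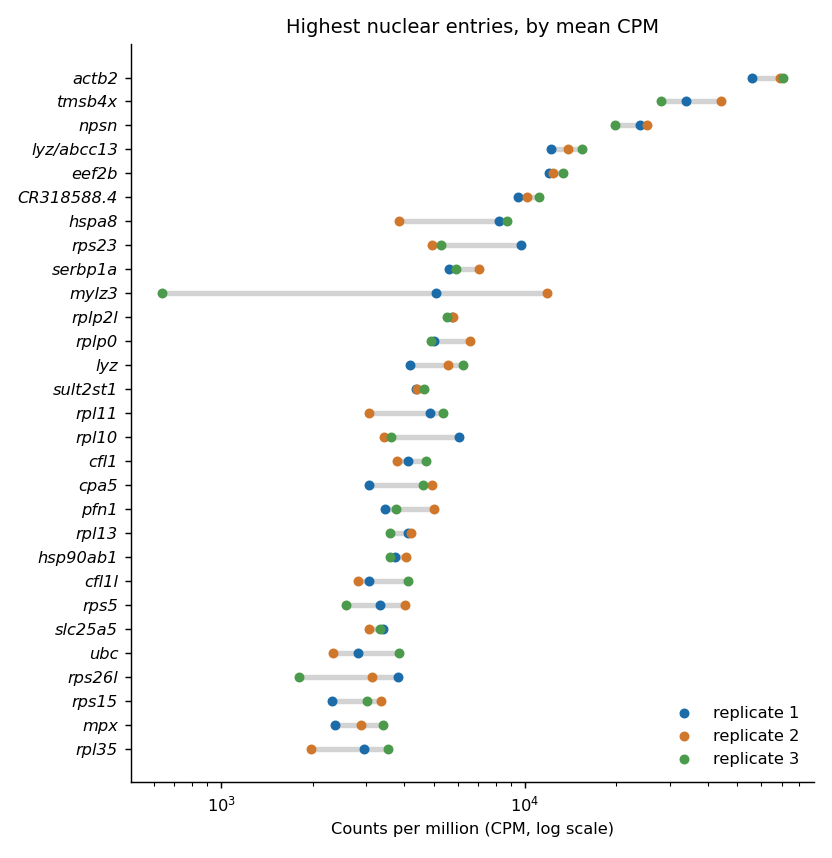
CPM (x axis, log scale) of 29 of the 30 nuclear entries with the highest mean CPM, from the highest at the top; points are the 3 libraries and grey bars their range. The fast muscle gene mylz3 has by far the widest bar, while rplp2l and sult2st1 have narrow ones.

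A large share of lysozyme counts sat in a joint entry. The entry that joins lyz with its neighbour abcc13 had 12225, 13894 and 15462 CPM and ranked 4, above lyz itself in every library. The entry of abcc13 alone, which encodes a transporter of the ABC family, was at 0. In the RefSeq annotation of assembly GRCz12tu, which is not the build of the files, the 2 genes are next to each other on chromosome 24 and their spans do not overlap. Read together, lyz and the joint entry averaged 19193 ± 2678 CPM (SD, n = 3) and would rank 4. Joint entries took 1.95 ± 0.119% of counts. Only 3 reached 1000 CPM in every library, and the other 2 were atp6v0e1/rpl26 with 3155, 2342 and 1756 CPM and mrps15/CU499336.2 with 1618, 1906 and 2099 CPM, which were named after their values were seen.

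The granule and identity list was carried by a few very abundant genes. The list of 34 such entries, all of single genes, took 5.28 ± 0.267% of counts (mean ± SD, n = 3). Of the 34, 27 were at 1 CPM or more in every library (79.4%, against 28.0% of all single genes). The single gene npsn supplied 43.5% of the list's counts. After npsn, lyz, cpa5, cfl1l and mpx came lect2l, which encodes a relative of the leukocyte chemotaxin LECT2, with 2398, 2939 and 1865 CPM. The gene nccrp1, known from fish cytotoxic cells, had 1263, 2164 and 2695 CPM, lowest in replicate 1. Members listed at 0 were vsir, pnp5a, s100a11 and mmp13b.

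Matrix metalloprotease transcripts came from very few genes. Collagenase 3, mmp13a, is present in the table as 2 entries, between which the authors' counting could split reads, with 2117, 2044 and 2454 CPM and 1269, 1153 and 1579 CPM. The gelatinase gene mmp9 had 1001, 635 and 669 CPM. The inhibitor gene timp2b had 112, 78.4 and 115 CPM. These were the only 4 of 26 listed entries at 1 CPM or more in every library (15.4%, against 28.0% of all single genes). The 16 at 0 included mmp14a, mmp15b and mmp28. The membrane-type gene mmp14b had 2.06, 0.589 and 1.40 CPM and the gelatinase gene mmp2 had 1.03, 0 and 0.465 CPM, near the limit of a count of 0.

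The oxidase that makes the respiratory burst was present with its membrane, cytosolic and switch subunits. Its 10 listed genes summed to 868, 909 and 887 CPM. Of the 10, 7 were at 1 CPM or more in every library (70.0%, against 28.0% of all single genes). The catalytic subunit cybb had 269, 217 and 205 CPM, and its partner cyba had 66.4, 57.7 and 76.0 CPM. The cytosolic organizer ncf1 had 143, 179 and 160.1 CPM, and ncf4 had 6.69, 13.6 and 14.9 CPM. The GTPase rac2, which turns the complex on in blood cells, had 308, 399 and 369 CPM, while rac1a had 4.12, 1.77 and 0.621 CPM. The chaperone gene of the complex, cybc1, was at 0, as in all 12 libraries of the series.

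Lipid mediator genes were led by the leukotriene branch. The 37 listed eicosanoid and annexin entries summed to 1984, 1605 and 2275 CPM. Of the 37, 16 were at 1 CPM or more in every library (43.2%, against 28.0% of all single genes). Leukotriene A4 hydrolase, lta4h, which makes the chemoattractant leukotriene B4, had 866, 606 and 1006 CPM, and alox5ap, which presents arachidonic acid to 5-lipoxygenase, had 400.0, 252 and 336 CPM. The prostaglandin synthase gene ptgs1 had 171, 145 and 148 CPM, while its inducible relative ptgs2a was at 0. The prostaglandin-degrading enzyme gene hpgd had 119.9, 156 and 281 CPM, highest in replicate 3. Annexin A1, anxa1a, whose product limits neutrophil recruitment, had 60.7, 87.8 and 85.6 CPM.

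The actin and motility list held more counts than the granule list, mostly through actb2 and tmsb4x. The 84 listed actin and motility entries, thymosin included, took 13.6 ± 1.06% of counts. Of the 84, 69 were at 1 CPM or more in every library (82.1%, against 28.0% of all single genes). Of the mean sum of 136052 CPM, actb2 supplied 48.0%, and tmsb4x averaged 35381 CPM. The Arp2/3 subunit gene arpc1b, part of the complex that branches actin filaments, had 1873, 1822 and 2379 CPM. The Wiskott-Aldrich gene wasb, whose product switches that complex on in blood cells, had 928, 949.7 and 1047 CPM. Coronin, coro1a, had 569.9, 612 and 654 CPM, and L-plastin, lcp1, which bundles filaments in leukocytes, had 489.6, 439 and 331 CPM. The myosin light chain gene myl12.1 had 2016, 1710.3 and 2244 CPM. Members at 0 included flnb, limk1a and ssh1a. Adhesion genes were lower, and their 42 entries summed to 636, 462 and 493 CPM. Talin, tln1, had 235, 156 and 148 CPM and the leukocyte integrin chain itgb2 had 118, 105 and 113 CPM, while its partner itgam had 12.9, 14.7 and 6.83 CPM.

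Receptor genes for chemoattractants were led by ltb4r. Of the 39 listed entries, 9 were at 1 CPM or more in every library (23.1%, against 28.0% of all single genes) and 18 were at 0. The leukotriene B4 receptor gene ltb4r was the highest with 169, 145 and 185 CPM, and took 41.7% of the summed level. Next came the chemokine receptor genes cxcr3.2 with 66.4, 58.9 and 78.2 CPM and ccr9a with 68.5, 59.5 and 64.4 CPM. The sphingosine phosphate receptor gene s1pr4 had 44.8, 40.1 and 42.0 CPM. Of the interleukin-8 receptors, cxcr1 had 51.0, 27.7 and 18.8 CPM, highest in replicate 1, and cxcr2 had 0, 0 and 1.09 CPM. The drug given to other groups of the series blocks Cxcr4. The entry joining cxcr4b with CR522881.1 had 1.54, 2.36 and 3.41 CPM and cxcr4a had 0.515, 1.18 and 1.55 CPM, and both were named after their values were seen. The joint entry is the only value given here for cxcr4b, and an entry of that gene alone was not analysed here.

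Cytokine receptors were led by a single gene. The interleukin-6 receptor gene il6r had 449.9, 318 and 429 CPM and took 57.0% of the summed level of 45 entries. Of the 45, 14 were at 1 CPM or more in every library (31.1%, against 28.0% of all single genes). The interleukin-10 receptor chain il10rb had 111, 84.2 and 112 CPM, and the interferon gamma receptor chain ifngr2 had 48.9, 34.8 and 52.7 CPM. The tumour necrosis factor receptor gene tnfrsf1a had 36.6, 155 and 32.4 CPM, high in replicate 2. The granulocyte colony-stimulating factor receptor gene csf3r, which supports neutrophil production, had 3.60, 4.71 and 2.64 CPM and was named after its values were seen.

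The highest cytokine genes were il16, il34 and il1b. Of 49 entries, 12 were at 1 CPM or more in every library (24.5%, against 28.0% of all single genes) and 24 were at 0. The gene il16, whose product attracts CD4-bearing cells in mammals, had 497, 539.6 and 605 CPM. The macrophage growth factor gene il34 had 169, 140.2 and 165 CPM. The inflammatory gene il1b had 167, 114 and 187 CPM, so its transcript was measured in cells of uncut larvae in every library. The tumour necrosis factor gene tnfb had 188, 35.9 and 46.4 CPM, high in replicate 1, while tnfa was at 0. Chemokines summed to 83.4, 70.11 and 67.8 CPM over 34 entries. The highest was ccl34a.4 with 41.7, 36.5 and 26.8 CPM, and 18 entries were at 0, among them cxcl12a and cxcl18b. The interleukin-8 gene cxcl8a had 1.03, 0 and 0.465 CPM and was named after its values were seen.

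The list of genes that sense microbes was led by a relay kinase. Of 42 listed entries, 9 were at 1 CPM or more in every library (21.4%, against 28.0% of all single genes). The kinase gene map3k7, which relays signals of Toll-like receptors, had 110.2, 74.2 and 110.1 CPM and took 50.6% of the summed level. The flagellin receptor gene tlr5b had 7.72, 7.66 and 9.31 CPM and the adaptor gene myd88 had 9.78, 5.30 and 6.36 CPM, while tlr2, tlr7 and tlr8b were at 0. Of 24 NF-kappa-B entries, 14 were at 1 CPM or more in every library (58.3%, against 28.0% of all single genes). The 6 at 0 included the subunit genes rela and nfkb1. The ubiquitin ligase gene birc2 had 212, 203 and 212 CPM, and nfkbiab, which encodes an inhibitor of the factor, had 99.4, 61.3 and 76.5 CPM. The inflammasome adaptor gene pycard had 29.9, 20.6 and 29.8 CPM and the caspase gene caspa had 76.7, 119 and 116 CPM.

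The interferon response and antigen presentation lists were each led by 1 gene. Of 26 interferon entries, 5 were at 1 CPM or more in every library (19.2%, against 28.0% of all single genes). At 0 were 15 of them, among these rsad2, mxa and mxe. The transcription factor gene stat1a took 70.6% of the summed level with 170.4, 172 and 212 CPM. Beta 2 microglobulin, b2ml, the light chain of class I molecules, had 402, 321 and 409.9 CPM and took 94.1% of the antigen presentation list. The class II chaperone gene cd74a was at 0. Signalling genes were broader, with 18 of 24 JAK and STAT entries at 1 CPM or more in every library (75.0%). Of 38 Src and ITAM entries, 23 were (60.5%), against 28.0% of all single genes. The kinase gene jak1 had 343, 270.4 and 293 CPM, the phosphatase gene ptpn6, a brake on leukocyte receptors, had 208, 141 and 211 CPM, and the receptor adaptor gene fcer1gl had 585, 547 and 711 CPM.

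Myeloid transcription factors were led by cebpb. It encodes a factor that drives granulocyte production on demand in mammals, and it had 1058, 566 and 1078 CPM, lowest in replicate 2. The factor gene spi1b, the zebrafish PU.1 that directs myeloid fate, had 336, 396 and 388 CPM, and elf1 had 234, 242 and 264 CPM. Of 51 entries, 30 were at 1 CPM or more in every library (58.8%, against 28.0% of all single genes). Members at 0 included mafb, irf1a and gfi1ab. Immediate-early genes, which respond quickly to stimuli of many kinds, summed to 7041, 4907 and 6448 CPM. The gene atf3 had 1489, 679 and 685 CPM, egr1 had 275, 305 and 371 CPM and nr4a1 had 474, 316 and 406 CPM, while fosaa and fosab were at 0. Clock genes summed to 322, 217 and 248 CPM, with nfil3.5 highest at 55.1, 48.3 and 54.8 CPM.

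Translation and energy genes filled much of the remaining pool. Cytosolic ribosomal genes took 12.08 ± 0.677% of counts. Of 86 entries, 82 were at 1 CPM or more in every library (95.3%, against 28.0% of all single genes). The stalk protein gene rplp2l had 5756, 5798 and 5531 CPM. Of 101 nuclear entries for the respiratory chain, ATP synthase and their assembly factors, 86 were at 1 CPM or more in every library (85.1%). The 101 entries took 1.03 ± 0.0883% of counts, against 31.1 ± 1.13% for the mitochondrially encoded list. Within that list, the oxidase subunit mt.co1 had 42875, 51828 and 88354 CPM, highest in replicate 3. Mitochondrial ribosomal RNA took 19.2 ± 2.66% of counts and mitochondrial messenger RNA 11.08 ± 2.45%.

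Sugar metabolism was represented by both glycolysis and the pentose phosphate pathway, which supplies the NADPH that the oxidase consumes. The glycolytic gene gapdh had 708, 684 and 931 CPM and aldoaa had 471, 394 and 456 CPM. The pentose phosphate gene pgd had 514, 434 and 458 CPM, and tktb had 243, 230.4 and 244 CPM. Of 57 listed entries, 31 were at 1 CPM or more in every library (54.4%, against 28.0% of all single genes). Iron and antioxidant genes included the ferritin gene fth1a with 838, 424 and 467 CPM, highest in replicate 1, and the selenoprotein gene selenow1 with 659, 765 and 1058 CPM. Polyamine genes were led by the spermine synthase gene sms with 1622, 1551 and 2098 CPM, while arg1, nos2a and nos2b were at 0. Of the lysosomal genes, ppt1, which removes lipid anchors from proteins, had 938, 1014 and 601 CPM and the cathepsin gene ctss2.1 had 829, 664 and 885 CPM.

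Survival and proliferation genes were both present. The antiapoptotic gene mcl1a, whose product keeps neutrophils alive in mammals, had 1001, 1081 and 1092 CPM and took 49.9% of its list. Of 52 entries there, 32 were at 1 CPM or more in every library (61.5%, against 28.0% of all single genes). The executioner caspase gene casp3a had 46.8, 41.8 and 43.3 CPM. Of 94 cell cycle entries, 76 were at 1 CPM or more in every library (80.9%, against 28.0% of all single genes). Only 3 were at 100 CPM or more, a level that 2.41% of all single genes reached. The replication clamp gene pcna was the highest with 525, 314 and 373 CPM, and the licensing gene mcm3 was at 0. Histone counts were led by genes of the replication-independent variant H3.3, namely h3f3b.1 with 651, 468 and 508 CPM, h3f3d with 378, 259 and 372 CPM and h3f3c with 432, 212 and 336 CPM. Another entry named h3f3b.1 had no count in any of the 12 libraries of the series. Whether the counting method catches transcripts of all histone genes alike was not tested.

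A value of 0 in these libraries says only that a gene was listed at 0. Genes that cells in general use were among them, including the ribosomal genes rpl21, rpl9 and rpl26, the translation gene eif3k, the respiratory gene ndufa2 and tpt1, which encodes the translationally controlled tumour protein. Of these rpl26 had counts in its joint entry, given above, and rpl9 in the entry rpl9/rfc1, with a mean of 0.103 CPM. Of the 11623 single genes at 0, 9585 were protein coding, out of 22798 protein-coding single genes. Of the same 11623, 5905 had no count in any of the 12 libraries of the series and 5718 had a count in another group. Members of the neutrophil lists at 0 that did have a count elsewhere in the series included tnfa with 15 counts in 6 libraries and ptgs2a with 45 in 5. For tlr2, arg1, tyrobp, cybc1, vsir, pnp5a, s100a11, flnb, ssh1a, mmp28 and rsad2 there was no count in any of the 12. These absences were therefore read as not detectable at this depth and with this annotation.

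In many a/b gene pairs a single member held nearly all counts. Teleost fish carry many gene pairs left from a whole-genome duplication, usually named with the letters a and b, although these letters also name genes that are separate in vertebrates at large. Of 749 pairs with such names and at least 10 CPM between them, 1 member held over 90% of the pair's counts in every library in 391 (52.2%), and it was the a member in 216 and the b member in 175. In 358 pairs neither did. The pairs were taken by name alone, so both kinds are counted, and how reads of near-identical copies were assigned is not known here. Of these 358, the a share lay on 1 side of 50% in all 3 libraries in 295 and crossed it in the others. In 188 pairs the lower member was at 0 in every library, with the limit on reading a 0 given above. The pairs named next were picked after their values were seen, among those with the highest summed level.

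Named pairs of actin and myeloid genes fell on both sides. The Arp2/3 genes arpc1a and arpc1b averaged 6.66 ± 3.42 CPM and 2025 ± 308 CPM (SD, n = 3), and the a share was 0.317 ± 0.113%. The transcription factor genes cebpa and cebpb averaged 37.7 ± 4.28 CPM and 901 ± 290.3 CPM, with an a share of 4.38 ± 1.81%. The cebp, arpc1 and coro1 letters name genes that are separate in mammals too. The membrane linker genes msna and msnb averaged 825 ± 119 CPM and 0.0517 ± 0.0896 CPM, and coro1a and coro1b 612 ± 42.2 CPM and 0.103 ± 0.179 CPM. Others were shared. The genes wasa and wasb averaged 295 ± 16.5 CPM and 975 ± 63.4 CPM, with an a share of 23.2 ± 1.37%. The capping protein genes capza1a and capza1b averaged 952 ± 206 CPM and 839 ± 193 CPM, with an a share of 53.1 ± 10.6%.

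**Figure D3:**
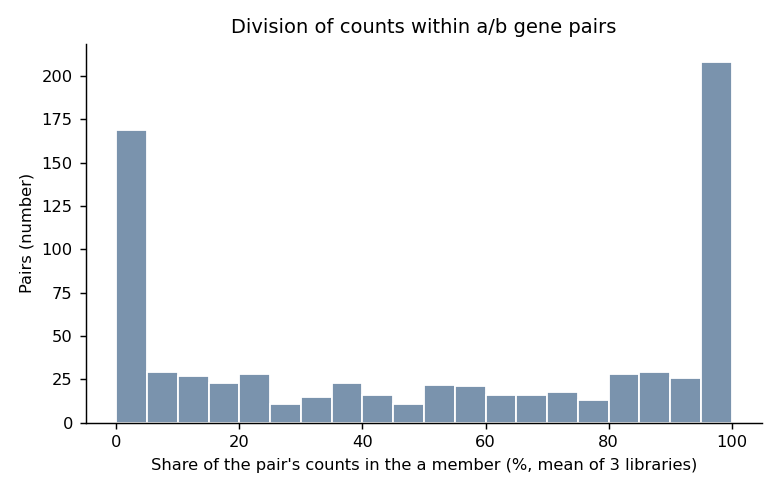
Number of a/b gene pairs (y axis) by the share of the pair's counts in the a member (x axis, percent, mean of 3 libraries) for 749 pairs of at least 10 CPM between them. The tallest bars are at both ends, where a single member holds nearly all counts.

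Of the lists of other cell types, skeletal muscle had the highest mean summed level. The 59 listed muscle entries summed to 9039.8, 22083 and 3514 CPM, or 1.15 ± 0.953% of counts. Of the 59, 36 were at 1 CPM or more in every library (61.0%, against 28.0% of all single genes). The fast myosin light chain gene mylz3 alone took 50.6% of the list, with 5077, 11825 and 638 CPM. The troponin gene tnnc2 had 668, 2309 and 112 CPM, the creatine kinase gene ckmb 691, 1527 and 359.9 CPM and the tropomyosin gene tpma 616, 1321 and 93.1 CPM. In each of these 4 genes replicate 2 was highest and replicate 3 lowest. Not all listed muscle genes followed that order, and myl10 and myl13 were highest in replicate 3. In sorted bulk samples, fewer cells of a type and less RNA per cell cannot be told apart. Without replicate 2 the list averaged 0.628% of counts, and its part in the other results was not tested.

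Other cell lists had lower means than the muscle list, and many of their members are shared with other lists. The whole macrophage list summed to 304, 197 and 264 CPM, led by the receptor gene cxcr3.2 given above. At 1 CPM or more in every library were 14 of its 31 entries (45.2%, against 28.0% of all single genes). Of its entries, 18 are also on neutrophil or general lists, and the other 13 summed to between 26.5 and 83.4 CPM. Endothelial entries on no neutrophil or general list summed to between 9.15 and 57.1 CPM. Counted in the same way, T lymphoid entries summed to between 19.6 and 46.0 CPM and B lymphoid ones to between 9.43 and 15.5 CPM. Erythroid entries summed to between 88.0 and 361 CPM (the whole list averaged 0.0215% of counts and 0.0132% without replicate 2), led by the embryonic globin gene hbbe1.3 with 13.9, 187 and 74.3 CPM, highest in replicate 2. Skin entries summed to between 520 and 871 CPM, led by keratin genes such as krtt1c19e with 260.0, 147 and 86.3 CPM and krt4 with 145, 102 and 57.1 CPM, highest in replicate 1. Neuronal and glial entries summed to between 761 and 973 CPM, but the sodium pump gene atp1a3a, with 897, 736 and 767 CPM, accounted for nearly all of it, and elavl4 had 22.7, 2.36 and 0.465 CPM. Counted over entries on no neutrophil or general list, 12 of the 17 lists were highest in replicate 1, 3 in replicate 2 and 2 in replicate 3. Some placings were near ties. The B lymphoid placing rested on 15.5 CPM in replicate 3 against 15.4 CPM in replicate 1. The germ cell placing rested on 26.53 CPM in replicate 3 against 26.51 CPM in replicate 2. The thrombocyte placing rested on 54.1 CPM in replicate 1 against 53.7 CPM in replicate 3. That of the mast cell and eosinophil list rested on 0.515 CPM in replicate 1.

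Every list of other cell types held members at 0, and the genes named here at 0 were picked for that value. Of the skeletal muscle, skin and erythroid lists, 8 of 59, 6 of 43 and 5 of 28 entries were at 0. Among macrophage genes mfap4 and mpeg1.2 were at 0 and mpeg1.1 had 13.4, 4.12 and 7.45 CPM, named after its values were seen. Over all 12 libraries of the series mfap4 had no count and mpeg1.2 had 1, so the limit on reading a 0 given above applies. The T cell gene cd8a, the eosinophil peroxidase gene epx, the endothelial receptor gene kdrl and the germ cell gene ddx4 were at 0. Other members of their lists had counts. Of macrophage entries on no neutrophil or general list, 5 of 13 were at 0. Counted in the same way, 16 of 25 T lymphoid, 8 of 25 endothelial and 7 of 10 germ cell entries were at 0. Over all single genes 45.8% were at 0. At 1 CPM or more in every library were 5, 4, 1 and 1 of these entries in the same order, against 28.0% of all single genes. In the germ cell list gra supplied 99.4% of a mean sum of 24.7 CPM. The mast cell and eosinophil list summed to 3079, 4966 and 4604 CPM, of which cpa5 supplied 99.9%. As cpa5 is also on the granule and identity list, the count of entries on no neutrophil or general list leaves it out. The 4 entries left, 3 of them at 0, summed to at most 0.515 CPM. Whether the sort held mast cells was not tested.

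**Figure D4:**
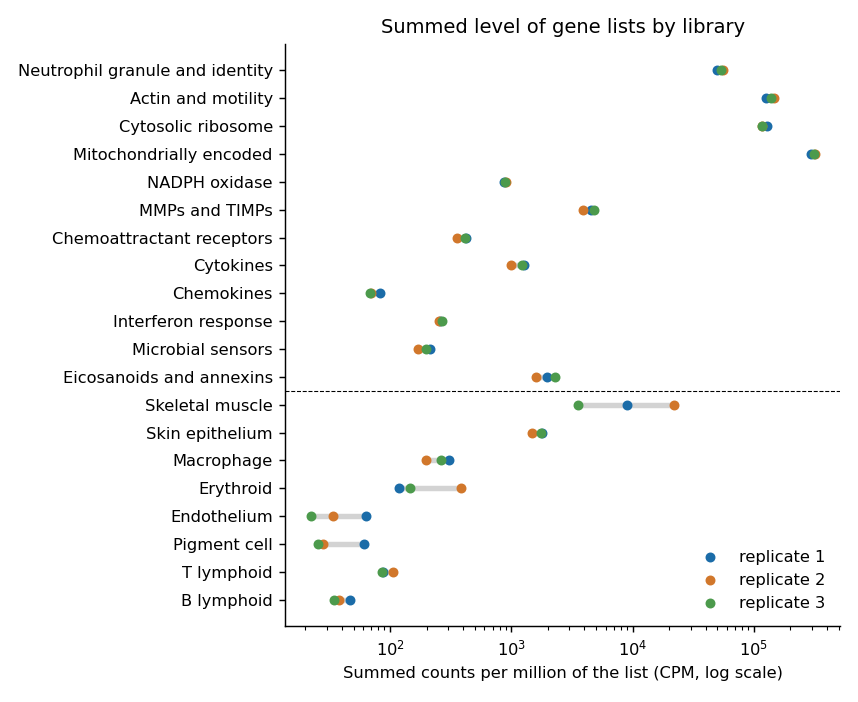
Summed CPM (x axis, log scale) of 20 gene lists in each of the 3 libraries, with grey bars for the range; lists above the dashed line are of neutrophil and general functions, and those below are of other cell types. Skeletal muscle and erythroid lists have the widest bars, and the oxidase list a bar of nearly no width.

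Among the better measured genes, the few with the widest spread were mostly muscle genes. Among 1340 nuclear entries with a mean of at least 50 CPM, the median coefficient of variation was 17.9%, and the median range over the libraries was 0.50 on the log2 scale of CPM + 0.5. The highest library was over 2 times the lowest in 180 entries (13.4%), of which 20 were on the muscle list and 95 were highest in replicate 1. It was over 4 times the lowest in 31 entries, of which 17 were on the muscle list. That list had 22 entries with a mean of at least 50 CPM. The common biological coefficient of variation, an edgeR estimate of the variation between libraries beyond counting, was 0.284 over 4452 entries that passed a filter on counts. In simulated libraries with a true value of 0.3 the same steps gave 0.285, since a filter on counts leaves out entries that happened to be low. With no filter on low counts the estimate was 0.435. Over the 7144 entries at 1 CPM or more, Pearson correlations of log2 CPM between libraries were 0.910 to 0.930, and they describe genes, which are not independent replicates.

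The long noncoding RNA CR383676.2 had the widest range, with 1909, 1805 and 70.9 CPM, low only in replicate 3. The muscle light chain gene mylpfa had 125, 504 and 18.5 CPM, and the troponin gene tnni2a.4, which was not on the muscle list, had 132, 649 and 24.0 CPM. Other muscle light chains ran the opposite way, since myl10 had 42.2, 16.5 and 426 CPM and myl13 had 15.4, 6.48 and 146 CPM, both highest in replicate 3. Among the 10 steadiest entries, the nucleolin gene ncl had 297, 295 and 296 CPM, the ribosomal gene rps19 had 555, 555 and 561 CPM and the cyclophilin gene ppib had 277, 282 and 278 CPM. The entry arhgef3l had 164, 165 and 167 CPM. The integrin-linked kinase gene ilk, whose product ties integrins to actin, had 90.1, 91.9 and 91.4 CPM.

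**Figure D5:**
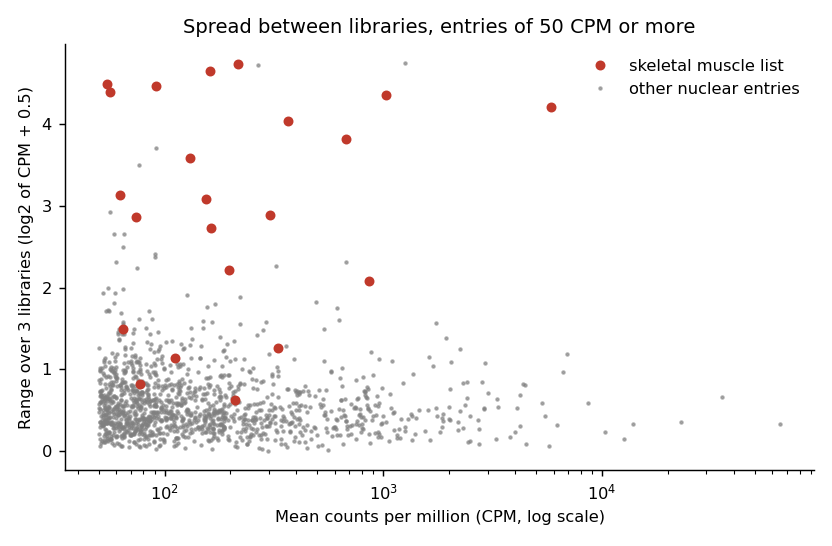
Range of CPM over the 3 libraries (y axis, log2 of CPM + 0.5) against mean CPM (x axis, log scale) for 1340 nuclear entries with a mean of at least 50 CPM; red points are the skeletal muscle list and grey points all others. Most grey points lie under 1, and most red points lie over 2.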

How the data were processed

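Messenger RNA was counted by an adapted CEL-seq protocol, per the labels' protocols. The authors deposited raw, unnormalized read counts for each entry. BWA, genome build GRCz11 and DESeq2 1.38 are named per the submitters' processing notes, without their roles. The sources used here do not say if molecular identifiers were used. In gene symbols of the table, dots replace dashes.

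The 3 libraries were grouped by their labels and no contrast was made. CPM was computed over all entries except ERCC (Python 3.11.15, pandas 2.3.3). Variation between libraries was estimated in R 4.3.3 with edgeR 4.0.16 and an intercept only, after filterByExpr (minimum count 10, minimum total 15); DESeq2 1.42.0 gave alternative size factors. The steps were tested on simulated data.

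Members and the 60 gene lists were chosen with earlier results of these data known. Of 1690 listed symbols 1532 were found, 35 of them through the reference table, and 10 lists were taken by name pattern. After values were seen, wrongly matched or misplaced names were removed from 4 lists. Named were the markers, the 30 highest entries, up to 8 high members and up to 8 members at 0 or under 1 CPM per list, and the 10 most and least variable entries of 50 CPM or more. Outside that rule, and after values were seen, cxcr2, tnfa, eif3k, tpt1, limk1a, ssh1a, mmp28, mafb, cxcl18b and the genes so marked were added. Values of a few members of these lists, and of an entry among the 30 highest, are not reported here. The sources used here do not say how the biological replicates relate to separate animals.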

Additional observations from a re-analysis of the deposited data

Results flagged for a closer look

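Counts on the ERCC spike-in entries, which enter none of the levels given, were above the limit that a count of 0 allows in each library. There were 137 counts in replicate 1, 110 in replicate 2 and 721 in replicate 3, spread over 34, 23 and 57 of the 88 spike-in entries. The sources used here do not give the amount of spike-in added, so no level was scaled by it.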

How the results depend on the processing

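Scaling to nuclear counts only raised every level, since mitochondrial counts leave the total. Entries at 1000 CPM or more in every library became 115, against 76. The granule and identity list became 7.70%, actin and motility 19.8%, the cytosolic ribosome 17.6% and EGFP 2532 CPM, and the mitochondrially encoded list came to 45.3% of nuclear counts. Crediting joint entries to each gene they name, chosen after the data were seen, gave 6.67% for the granule list and rank 4 for lyz. The common biological coefficient of variation was 0.277 with TMM factors, 0.276 with DESeq2 size factors, 0.278 after thinning, 0.267 at 10 CPM in every library and 0.435 with no filter. It was 0.317 at 10 CPM in the mean over libraries, chosen after the data were seen, and 0.286 to 0.297 with each library left out in turn. The 30 highest entries kept 27 to 30 members under the alternatives run. The number of list members detected in every library moved by over 1.5 times in 32 of 60 lists at 10 CPM in place of 1 and in 4 of 60 without replicate 3, all 4 of other cell types. The skeletal muscle share, 1.15% of counts with all libraries, was 0.628% without replicate 2 and between 0.628% and 1.56% with each library left out. No paired analysis was possible because no test was made and only 1 group was described. Depth limits genes under about 1.54, 1.77 and 0.465 CPM in replicates 1, 2 and 3. The cut of 1 CPM lies below that limit in replicates 1 and 2.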
